A study of Homo sapiens with 8 samples.

Results

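The transcripts of 9 genes that move, store and sense iron were followed in Kyse510 cells, an established human esophageal squamous cell carcinoma (ESCC) line, after LSD1 and G9a were inhibited or silenced. The genes were taken by symbol (TFRC, STEAP3, SLC11A2, FTL, FTH1, NCOA4, SLC40A1, ACO1 and IREB2). All 9 are among the 26360 genes listed in both deposited expression tables, and all 9 passed the filter on low values in every comparison. Against vehicle, TFRC was the only one of the 9 called higher with SP2509, with UNC0642 and with both inhibitors together. FTL, the most abundant of the 9 per length, was called lower with SP2509 and after induction of shG9a. IREB2 was called lower with SP2509, alone or in the combination, and higher after induction of either short hairpin RNA (shRNA).

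RNA was sequenced from 8 libraries, 1 per condition. Cells of the inhibitor arm were given vehicle (DMSO), 7 µM SP2509, which inhibits the histone demethylase LSD1, 7 µM UNC0642, which inhibits the histone methyltransferase G9a, or SP2509 together with UNC0642 for 2 days; no separate doses were given for the combination. In the genetic arm, cells carrying a doxycycline- (Dox-) inducible shLSD1 or shG9a construct were kept under puromycin for 14 days and then left without Dox or given Dox for 2 days. Each induced library was set against the same line without Dox, so exposure to Dox and silencing of the target cannot be told apart, and whether each line is 1 clone is not stated.

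Expression was deposited as FPKM, a count of fragments per gene divided by the gene's length and the size of the library. The whole reads behind these values could be recovered, and the library totals ranged from 15662035 to 17889466 reads. A gene was called when (FPKM + 1) differed by at least 1.3-fold, 1 of the compared libraries or both reached 1 FPKM, and its reads differed by an exact binomial test (two-sided, p under 0.05). The 95% intervals given below are exact intervals of the ratio of the read rates, that is, of FPKM without a pseudocount. They cover counting error only. With 1 library per condition no difference has a replicate check, and each test compares a pair of libraries, not a pair of conditions.

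The labels were checked on the silenced genes. KDM1A, which encodes LSD1, had 26.0 FPKM in the shLSD1 line without Dox and 6.29 with it. EHMT2, which encodes G9a, had 7.85 FPKM in the shG9a line without Dox and 4.76 with it. In the other libraries KDM1A lay between 26.4 and 40.7 FPKM, and EHMT2 between 5.38 FPKM, with the combination, and 11.1 FPKM, with vehicle. Of 8 epithelial markers (KRT5, KRT14, KRT6A, KRT13, TP63, SOX2, DSG3 and EPCAM), 7 or 8 reached 1 FPKM in each library. SOX2 did not with SP2509 (0.313) or with the combination (0.636), against 18.3 FPKM under vehicle. KRT6A did not with vehicle (0.676), in the uninduced lines (0.769 and 0.805) or in the induced shLSD1 line (0.819). Of 13 markers of hepatocytes, erythroid cells, leukocytes, fibroblasts and endothelium, 1 (COL1A1, at 2.92 to 5.36 FPKM) reached 1 FPKM, and between 4 and 10 of them were at 0 or not listed. Over genes that reached 5 FPKM in both libraries, the median log2 fold change was -0.09 with SP2509, -0.004 with UNC0642, 0.04 with both inhibitors, 0.11 in the shLSD1 line and 0.14 in the shG9a line. Calls that end or appear once this shift is removed are named with each gene. As a measure of how far libraries without a treatment differ, the uninduced shG9a library was set against the uninduced shLSD1 library. Of 12449 genes, 1.26% were called higher and 2.07% were called lower there, and 0 of the 9 iron genes were called. These libraries come from different lines and are not replicates.

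Cells take up iron bound to transferrin through the transferrin receptor, reduce it in the endosome and carry it to the cytosol by SLC11A2 (DMT1). Iron that is not used is stored inside ferritin, a shell built of heavy (FTH1) and light (FTL) chains, is released when NCOA4 carries ferritin to the lysosome, and leaves the cell through ferroportin (SLC40A1). The iron regulatory proteins, encoded by ACO1 and IREB2, bind hairpins called iron-responsive elements (IREs) when iron is scarce. Binding in the 5′ untranslated region (UTR) blocks translation, and binding in the 3′ UTR of TFRC protects the transcript from decay. An RNA level therefore reads out the TFRC arm of this control more directly than the ferritin arm, whose proteins were not measured here.

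The hairpins are shown because, of the genes that matched the search below, TFRC has its matches in the 3′ UTR and the others in the 5′ UTR. UTRs of the protein-coding GENCODE release 44 transcripts of the 9 genes were searched, on the transcribed strand, for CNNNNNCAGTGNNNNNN in which the 5 bases before the loop pair with the 5 bases after it, with G-U pairs allowed. The letters were found in the 5′ UTR of FTH1, FTL and SLC40A1, and at 4 places in the 3′ UTR of TFRC. Among all protein-coding genes, the canonical transcript held them in 19 of 19441 5′ UTRs (0.0977%) and in 122 of 19550 3′ UTRs (0.624%), UTRs of any length. Capitals mark the loop, and positions are in GRCh38, the build of the deposited tables. A match is a description of letters and not a measured binding site, and for the other genes it was only seen that these letters do not occur in the UTRs searched. A hairpin whose stem departs from this pairing would have been missed. SLC11A2 and the other genes without a match are therefore not shown to lack an element.
FTH1, 5′ UTR, chr11:61967574-61967602, minus strand: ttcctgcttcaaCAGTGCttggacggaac
FTL, 5′ UTR, chr19:48965335-48965363, plus strand: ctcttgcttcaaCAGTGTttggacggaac
SLC40A1, 5′ UTR, chr2:189580661-189580689, minus strand: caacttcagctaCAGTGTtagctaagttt
TFRC, 3′ UTR, chr3:196050979-196051007, minus strand: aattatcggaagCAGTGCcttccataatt
TFRC, 3′ UTR, chr3:196050575-196050603, minus strand: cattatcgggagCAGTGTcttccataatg
TFRC, 3′ UTR, chr3:196050510-196050538, minus strand: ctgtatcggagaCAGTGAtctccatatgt
TFRC, 3′ UTR, chr3:196050463-196050491, minus strand: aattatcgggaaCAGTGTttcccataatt

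TFRC (ENSG00000072274, chromosome 3 from 196027183 to 196082189, minus strand) encodes the transferrin receptor. It had 179 FPKM under vehicle, 503.5 under SP2509, 324 under UNC0642 and 431 under both inhibitors. All 3 treated libraries lay above vehicle, and the combination lay between the single inhibitors. TFRC rose 2.81-fold after SP2509 on the (FPKM + 1) scale (95% interval of the ratio 2.77 to 2.86), 1.81-fold with UNC0642 (1.78 to 1.84) and 2.40-fold with the combination (2.37 to 2.45). In the shLSD1 line it had 103 FPKM without and 133 with Dox, and in the shG9a line 110 and 116 FPKM. The shLSD1 difference was 1.29-fold, just short of the threshold, and its interval of 1.27 to 1.32 spans it. In the shG9a line the difference was 1.05-fold, about the 1.07-fold gap between the uninduced libraries, and it changed sign, to -0.07 on the log2 scale, once the median shift was removed. Against the combination, SP2509 alone differed by less than the threshold (combination over SP2509 0.856-fold), and UNC0642 alone was lower (combination over UNC0642 1.33-fold). Per length, TFRC ranked between 46 and 135 among all genes of the inhibitor libraries and between 241 and 324 in the knockdown libraries.

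STEAP3 (ENSG00000115107, chromosome 2 from 119223831 to 119265652, plus strand) encodes an endosomal ferrireductase that acts on transferrin-derived iron. It had 17.02 FPKM under vehicle, 7.31 under SP2509, 16.5 under UNC0642 and 10.1 under both inhibitors. It thus fell in both libraries that held SP2509, by 1.12 on the log2 scale with SP2509 (ratio 0.389 to 0.474) and by 0.70 with the combination (0.540 to 0.648). In the shLSD1 line it had 21.3 and 21.1 FPKM without and with Dox. In the shG9a line it rose from 22.6 to 30.3 FPKM, 1.32-fold (1.26 to 1.43), a call that ended when the median shift was removed (log2 0.26). TFRC and STEAP3, which act on the same uptake route, were called in opposite directions with SP2509 and with the combination.

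SLC11A2 (ENSG00000110911, chromosome 12 from 50979401 to 51028566, minus strand) encodes the divalent metal transporter DMT1. It had 10.3 FPKM under vehicle, 9.77 under SP2509, 7.56 under UNC0642 and 3.70 under both inhibitors. The combination library was the lowest, 2.40-fold below vehicle (ratio 0.327 to 0.394), and it was also called lower than either single inhibitor (2.29-fold below SP2509 and 1.82-fold below UNC0642). UNC0642 alone was 1.32-fold below vehicle (ratio 0.682 to 0.790). The SP2509 library was not called (exact binomial p = 0.139, ratio 0.886 to 1.02). In the shLSD1 line SLC11A2 rose from 9.39 to 12.7 FPKM, 1.32-fold, a call that ended without the median shift (log2 0.29). In the shG9a line it had 9.46 and 10.3 FPKM. The whole reads of SLC11A2 require a gene length of 9823 bases in the inhibitor table and 10145 bases in the knockdown table, so its levels are not set against each other across the tables; the other 8 genes had 1 length in both.

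**Figure D1:**
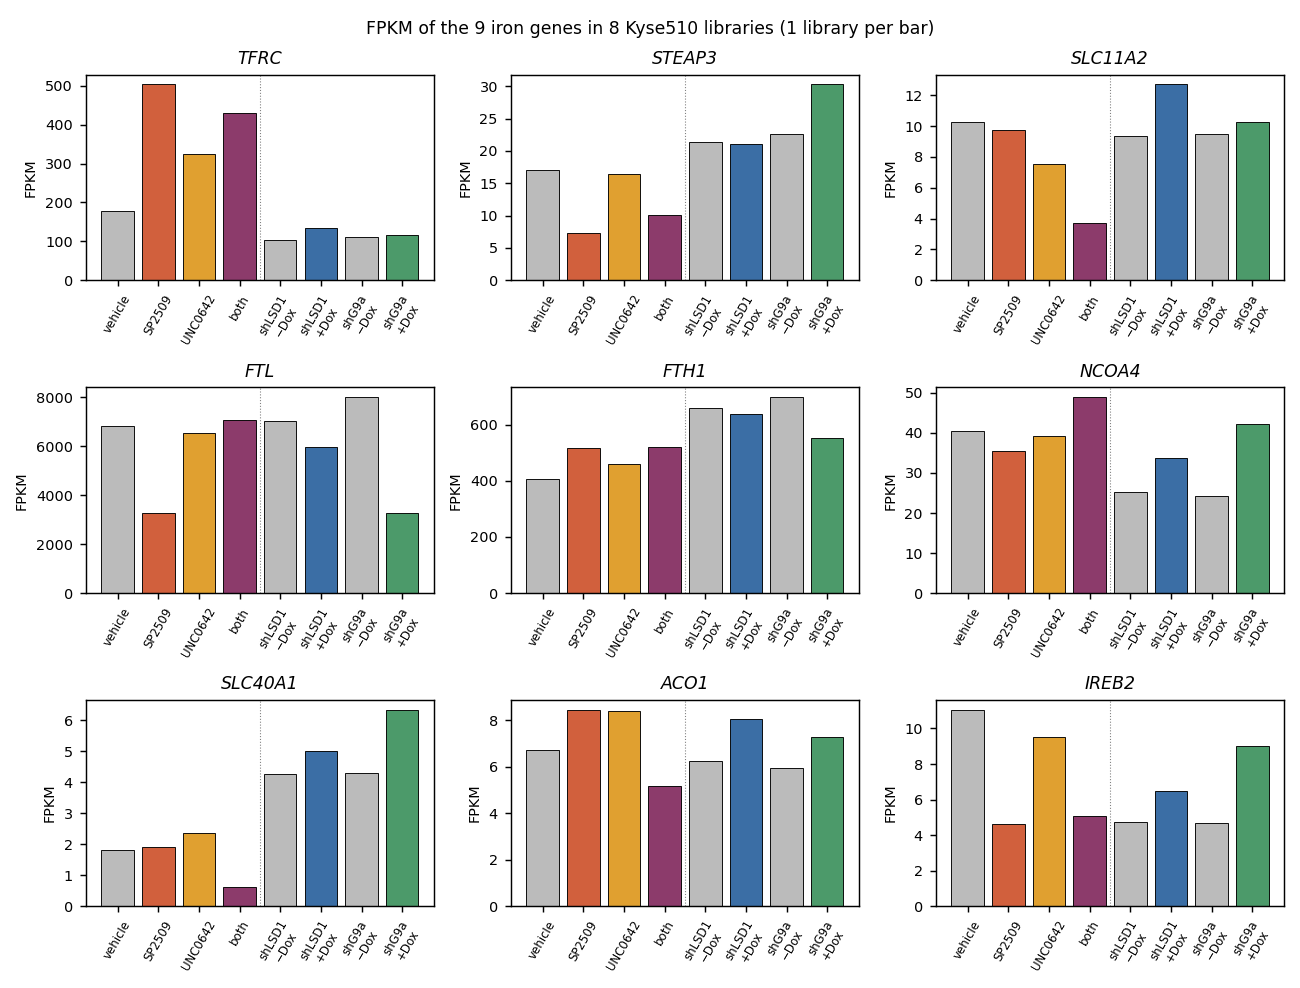
FPKM (y axis, from 0, with its own range in each panel) of the 9 iron genes in the 8 libraries (x axis), 1 bar per library and no error bars because each condition has 1 library. Grey bars are the controls, and the dotted line separates the inhibitor table from the knockdown table. The gene length behind the FPKM of SLC11A2 differs between these tables. TFRC stands at 503.5, 324 and 431 FPKM in the treated libraries against 179 with vehicle, and FTL is low with SP2509 and in the induced shG9a line.

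FTL (ENSG00000087086, chromosome 19 from 48965301 to 48966878, plus strand) encodes the ferritin light chain, which helps to lay down the mineral core. It had 6826 FPKM under vehicle, 3259 under SP2509, 6524 under UNC0642 and 7047 under both inhibitors. The SP2509 library stood apart from the other 3, with FTL 2.09-fold below vehicle (ratio 0.472 to 0.483). The combination, which also contained SP2509, was 1.03-fold above vehicle and 2.16-fold above SP2509 alone (2.14 to 2.19). In the knockdown arm FTL had 7028 FPKM without and 5961 with Dox in the shLSD1 line, a difference of 1.18-fold that was not called. In the shG9a line it dropped from 7994 to 3260 FPKM, by 1.29 on the log2 scale (ratio 0.404 to 0.412). Between the uninduced libraries FTL differed 1.14-fold (ratio 1.13 to 1.15), the widest gap of the 9 genes there. In every library FTL ranked between 3 and 11 among all genes by FPKM.

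FTH1 (ENSG00000167996, chromosome 11 from 61959718 to 61967660, minus strand) encodes the heavy chain, which oxidizes ferrous iron. It had 406 FPKM under vehicle, 517 under SP2509, 458 under UNC0642 and 519 under both inhibitors. All 3 treated values lay above vehicle and none was called. The differences were 1.27-fold with SP2509 (ratio 1.246 to 1.303) and 1.28-fold with the combination (1.251 to 1.309), both next to the threshold. FTH1 had 659 and 637 FPKM in the shLSD1 line without and with Dox, and 697 and 552 FPKM in the shG9a line, 1.26-fold lower. With the median shift removed, FTH1 was called higher with SP2509 (log2 0.44) and lower in the shG9a line (log2 -0.48).

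The proportion of the chains differed between libraries. With SP2509 FTL was called lower while FTH1 lay above vehicle, and in the induced shG9a line both lay below the control, FTL by more. FTL over FTH1, as a ratio of FPKM, was 16.8 under vehicle, 6.30 under SP2509, 14.3 under UNC0642 and 13.6 under both inhibitors. It was 10.7 and 9.36 in the shLSD1 line without and with Dox, and 11.5 and 5.90 in the shG9a line. The lowest ratios were those of SP2509 and induced shG9a. Reads on both genes together made up 0.682% of the library with vehicle, 0.391% with SP2509 and 0.398% in the induced shG9a line, and 0.653% to 0.843% in the other 5. The size of the ratio depends on gene length: the FPKM of FTH1 rests on 2030 bases, against 1203 bases in its canonical GENCODE transcript, whereas 878 bases for FTL is close to the 871 bases of its own. Ferritin has many processed copies in the genome that could share its reads. The 15 listed FTH1 pseudogenes held between 0.806% and 1.46% of the FTH1 reads of a library and the listed FTL pseudogenes at most 0.122% of the FTL reads, and pooling them with their parent gene changed no call. On the opposite strand, FTH1 overlaps BEST1, TFRC a pseudogene (AC024937.1) and RNU7-18P, and STEAP3 its antisense gene STEAP3-AS1, which reached at most 1.61, 1.49, 1.03 and 0.400 FPKM. SLC11A2 overlaps RNU6-87P on the same strand, which reached at most 1.04 FPKM and would share reads under any strand setting. The sources used here do not give the strand setting of the counting, and reads of such pairs may be shared.

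**Figure D2:**
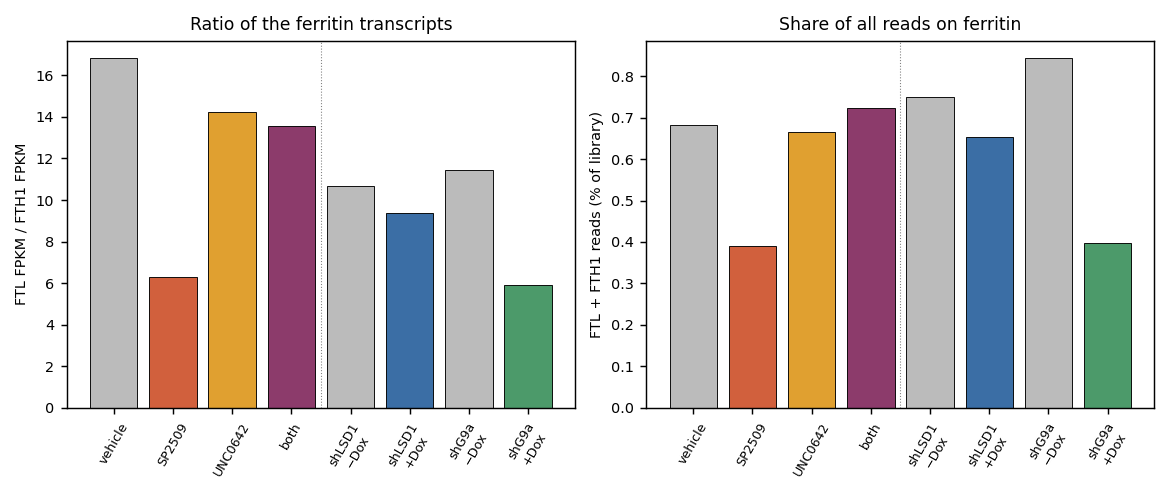
Ferritin transcripts in the 8 libraries, 1 bar per library with no error bars; the left panel gives the ratio of FTL to FTH1 FPKM and the right panel the reads of both genes in percent of the library's total, both axes from 0. SP2509 (6.30) and the induced shG9a line (5.90) have the lowest ratios and the lowest shares, 0.391% and 0.398%.

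NCOA4 (ENSG00000266412, chromosome 10 from 46005088 to 46030714, minus strand) encodes the receptor that delivers ferritin to autophagosomes. It had 40.5 FPKM under vehicle, 35.4 under SP2509, 39.1 under UNC0642 and 48.9 under both inhibitors, none of which was called against vehicle. The combination was 1.37-fold above SP2509 alone. NCOA4 rose 1.32-fold in the shLSD1 line, from 25.3 to 33.8 FPKM (ratio 1.26 to 1.42), and from 24.2 to 42.3 FPKM in the shG9a line, 1.71-fold (1.64 to 1.85). The former call ended with the median shift removed (log2 0.29) and the latter did not (log2 0.63). In the shG9a line, NCOA4 was thus called higher in the same library in which FTL was called lower.

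SLC40A1 (ENSG00000138449, chromosome 2 from 189560579 to 189583758, minus strand) encodes ferroportin, the exporter of cellular iron, and was the least expressed of the 9 genes. It had 1.80 FPKM under vehicle (122 reads), 1.89 under SP2509 (146 reads), 2.38 under UNC0642 (184 reads) and 0.616 under both inhibitors (45 reads). The combination library was the lowest, and its ratio to vehicle was 0.342 (0.238 to 0.485), which the pseudocount narrows to a 1.73-fold fall. The UNC0642 difference was 1.21-fold and not called (exact binomial p = 0.0193), although it passed with a pseudocount of 0.1. SLC40A1 had 4.28 and 5.03 FPKM in the shLSD1 line without and with Dox. It rose in the shG9a line from 4.31 to 6.33 FPKM, 1.38-fold (ratio 1.27 to 1.70), a call that ended with the median shift removed (log2 0.32).

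IREB2 (ENSG00000136381, chromosome 15 from 78437431 to 78501456, plus strand) encodes iron regulatory protein 2, which is degraded when iron is plentiful. It had 11.0 FPKM under vehicle, 4.63 under SP2509, 9.53 under UNC0642 and 5.05 under both inhibitors. Both libraries that held SP2509 were low: IREB2 fell by 1.10 on the log2 scale with SP2509 (ratio 0.387 to 0.454) and by 0.99 with the combination (0.423 to 0.496). These libraries were not told apart by their reads (exact binomial p = 0.0625, ratio of the combination to SP2509 0.995 to 1.20). In the genetic arm the direction was the other one. IREB2 rose from 4.72 to 6.45 FPKM after Dox in the shLSD1 line, 1.304-fold (1.25 to 1.49), and from 4.66 to 9.004 FPKM in the shG9a line, 1.77-fold (1.78 to 2.10 without the pseudocount). The shLSD1 call ended with the median shift removed (log2 0.27), and the shG9a call did not (log2 0.68). IREB2 was called in 4 of 5 comparisons, the most of the 9 genes.

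ACO1 (ENSG00000122729, chromosome 9 from 32384603 to 32454769, plus strand) encodes iron regulatory protein 1, which is a cytosolic aconitase when it carries an iron-sulfur cluster. It had 6.74 FPKM under vehicle, 8.45 under SP2509, 8.39 under UNC0642 and 5.17 under both inhibitors. Each single inhibitor lay above vehicle and the combination below it, by 1.22-fold, 1.21-fold and 1.25-fold, and none was called. With the median shift removed, the SP2509 difference was called (log2 0.38). The combination was called lower than SP2509 alone (1.53-fold) and lower than UNC0642 alone (1.52-fold). In the knockdown lines ACO1 had 6.25 and 8.07 FPKM (shLSD1) and 5.96 and 7.28 FPKM (shG9a), 1.25-fold and 1.19-fold higher with Dox and not called. ACO1 and FTH1 were the 2 genes called in none of the 5 comparisons.

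**Figure D3:**
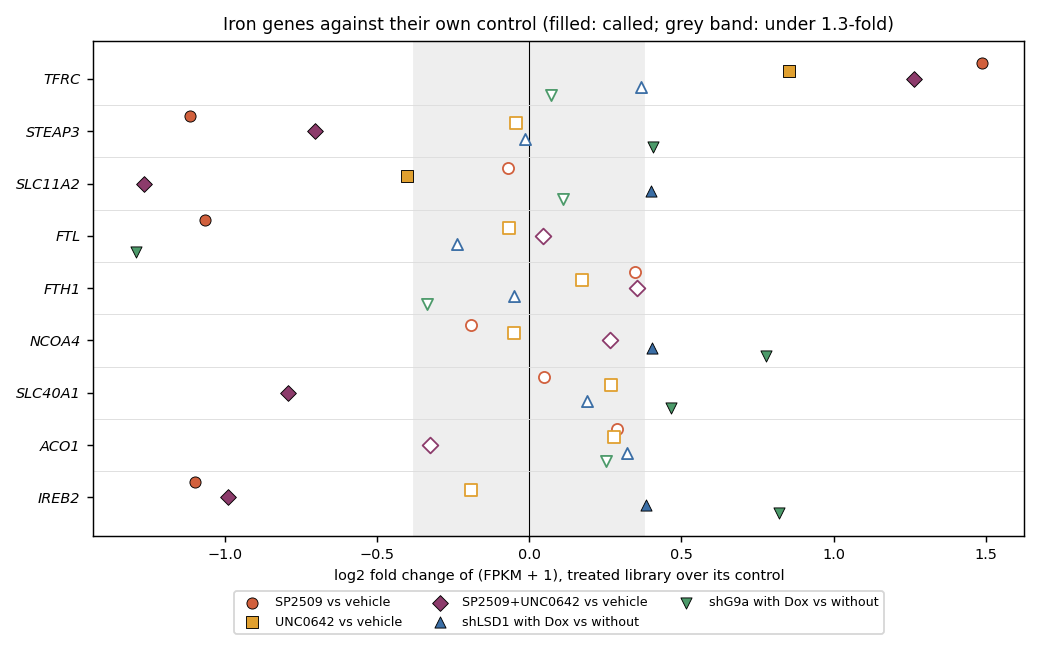
Log2 fold change of (FPKM + 1) of each treated library over its own control (x axis) for the 9 iron genes (y axis), 1 symbol per comparison and no error bars. Filled symbols are called, open symbols are not, and the grey band spans differences under 1.3-fold; TFRC lies to the right with the 3 inhibitor treatments, and IREB2 lies to the left in the libraries with SP2509 and to the right in the induced lines.

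Counted over the genes, SP2509 was accompanied by 1 call higher (TFRC) and 3 lower (FTL, IREB2 and STEAP3) among the 9, where 18% of 13342 genes were higher and 37.3% were lower. With UNC0642, 1 was higher (TFRC) and 1 lower (SLC11A2), against 15.6% and 13.8% of all genes. With the combination, 1 was higher (TFRC) and 4 were lower (SLC11A2, SLC40A1, IREB2 and STEAP3), against 28.8% and 28.9%. After Dox in the shLSD1 line 3 were higher (SLC11A2, IREB2 and NCOA4) and 0 were lower, against 22.4% and 10.3%, and in the shG9a line 4 were higher (SLC40A1, IREB2, NCOA4 and STEAP3) and 1 was lower (FTL), against 29.9% and 15.7%. With shares of this size over all genes, the number of calls among the 9 is not by itself a result about iron genes. The median log2 fold change of the 9 was -0.07 with SP2509, -0.04 with UNC0642, -0.33 with both inhibitors, 0.32 in the shLSD1 line and 0.25 in the shG9a line, beside -0.21, -0.01, -0.02, 0.13 and 0.18 over all genes tested. Comparisons in the inhibitor arm share the vehicle library.

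Set against each inhibitor alone, the combination gave 6 calls each time. Against SP2509, FTL, NCOA4 and STEAP3 were higher and SLC11A2, SLC40A1 and ACO1 were lower, where 39.1% of all genes were higher and 22.1% were lower. Against UNC0642, TFRC was higher and SLC11A2, SLC40A1, ACO1, IREB2 and STEAP3 were lower, where 25% and 24.6% of all genes were called. With the median shift of 0.12 between the combination and SP2509 removed, the calls of NCOA4 (log2 0.34) and STEAP3 (log2 0.30) against SP2509 ended. SLC11A2 and SLC40A1, which carry iron into the cytosol and out of the cell, and ACO1 were below both single inhibitors.

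The genes whose 5 log2 fold changes lay closest to those of a member were sought among 4580 genes with at least 5 FPKM in all 8 libraries, by the root mean square difference. For TFRC they were OTUD1 (0.17), PRSS22 (0.19) and OCIAD2 (0.20). FTH1 was matched most closely by DYNC1LI2 (0.08), BAIAP2L2 (0.08) and H3F3B (0.08). The nearest to FTL were SEC23B (0.19), MAL2 (0.22) and DNMT3B (0.23). The FTH1 distances are small because its differences are small, and a distance over 5 comparisons of single libraries is a description only.

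The wider iron genes were read in 4 lists. Of 21 other genes of iron transport and storage, 20 were listed, and 13 or 14 passed the filter in a comparison. SP2509 gave 3 higher and 7 lower, UNC0642 gave 4 and 4, the combination 6 and 5, shLSD1 5 and 2, and shG9a 4 and 6. Over all genes, as above, the shares called higher and lower were 18% and 37.3%, 15.6% and 13.8%, 28.8% and 28.9%, 22.4% and 10.3%, and 29.9% and 15.7%, beside 21.4% and 50%, 28.6% and 28.6%, 42.9% and 35.7%, 38.5% and 15.4%, and 30.8% and 46.2% in this list. In this order the median log2 fold changes were -0.20, 0.12, 0.22, 0.11 and -0.35, to be read beside the medians over all genes given above. Among these genes were larger differences than among the 9. LCN2, which encodes lipocalin-2, a binder of iron-laden siderophores, fell 21.1-fold in the shG9a line, from 1127 to 52.6 FPKM, and had 1166 and 964 FPKM in the shLSD1 line. Levels of LCN2 in the inhibitor arm were 118 FPKM under vehicle, 52.3 under SP2509, 71.7 under UNC0642 and 199.8 under both inhibitors. SLC39A8, which encodes a transporter of zinc, manganese and iron, rose in the shLSD1 line from 3.06 to 34.3 FPKM, 8.71-fold. The shG9a pair had 4.31 and 4.31 FPKM. With SP2509 the direction was the other one, 4.85 FPKM against 9.87 for vehicle. The combination had 4.20 FPKM and UNC0642 had 12.03. CP, which encodes the ferroxidase ceruloplasmin, fell from 15.3 to 2.40 FPKM with the combination, but had 22.4 FPKM with UNC0642 alone. The induced lines went opposite ways for CP. It had 44.02 FPKM without and 88.7 with Dox in the shLSD1 line, and 45.7 and 24.3 FPKM in the shG9a line. STEAP4, a metalloreductase of the same family as STEAP3, had 0.386 FPKM with vehicle and rose to 4.44 under SP2509, 2.83 under UNC0642 and 1.92 under both inhibitors. STEAP1 fell from 15.5 FPKM under vehicle to 5.01 with SP2509, 11.0 with UNC0642 and 7.77 with both inhibitors. In the shG9a line STEAP1 fell from 15.7 to 4.83 FPKM, and in the shLSD1 line it had 15.1 FPKM without and 18.6 with Dox. SLC39A14, a transporter of iron that is not bound to transferrin, fell from 47.6 FPKM under vehicle to 21.4 with SP2509 and 27.3 with UNC0642. It also fell in the shLSD1 line, from 19.2 to 12.2 FPKM, and in the shG9a line, from 20.4 to 10.8 FPKM. With the combination it stood at 70.4 FPKM, above vehicle. MCOLN1, a lysosomal channel, rose in the shG9a line from 1.22 to 2.77 FPKM.

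Of 16 other regulators and IRE-bearing transcripts, 15 were listed and between 10 and 12 passed the filter. SP2509 gave 2 higher and 3 lower, UNC0642 gave 2 and 0, the combination 6 and 3, shLSD1 3 and 0, and shG9a 2 and 1. As shares these were 20% and 30% (over all genes 18% and 37.3%), 18.2% and 0% (15.6% and 13.8%), 50% and 25% (28.8% and 28.9%), 30% and 0% (22.4% and 10.3%), and 20% and 10% (29.9% and 15.7%). Their median log2 fold changes were -0.12, -0.10, 0.11, 0.18 and 0.27. EPAS1, which encodes HIF-2α and carries an IRE, stood above vehicle (30.3 FPKM) in every treated inhibitor library. SP2509 had 50.1 FPKM, UNC0642 47.9 and the combination 40.5. FBXL5, whose product marks iron regulatory protein 2 for degradation, fell from 7.58 to 3.59 FPKM with the combination, but stood above vehicle with SP2509, at 11.4 FPKM. HERC2, which encodes a ubiquitin ligase for FBXL5, fell from 6.15 to 3.14 FPKM with SP2509 and rose from 2.16 to 3.72 in the shLSD1 line and from 2.49 to 4.50 in the shG9a line. BMP6, a ligand that induces hepcidin in the liver, rose from 0.689 FPKM to 1.65 with UNC0642 and to 4.50 with the combination, and ERFE, which encodes an antagonist of such ligands, was lower with Dox in the shG9a line (0.372 against 1.35 FPKM) and stood at 2.02 FPKM under vehicle and 4.96 under both inhibitors.

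All 19 genes of heme synthesis, transport and breakdown were listed and 17 passed the filter. SP2509 gave 0 higher and 9 lower, UNC0642 gave 2 and 3, the combination 5 and 6, shLSD1 4 and 0, and shG9a 5 and 0, with median log2 fold changes of -0.42, -0.13, -0.19, 0.21 and 0.16. As shares these were 0% and 52.9% (over all genes 18% and 37.3%), 11.8% and 17.6% (15.6% and 13.8%), 29.4% and 35.3% (28.8% and 28.9%), 23.5% and 0% (22.4% and 10.3%), and 29.4% and 0% (29.9% and 15.7%). The shares called higher with the combination and in both induced lines were thus near those over all genes. FECH, which inserts the iron, fell from 14.1 to 4.22 FPKM with the combination. It was also below vehicle for SP2509 (5.29 FPKM) and for UNC0642 (9.76 FPKM). HMOX1, which encodes heme oxygenase 1 and frees iron from heme, had 4.09 FPKM with vehicle and 1.07 with SP2509, and rose to 10.1 with UNC0642 and to 29.2 with the combination, 5.94-fold. ALAS1, the first enzyme of the pathway, fell from 24.2 to 15.3 FPKM with UNC0642, and with the combination it stood far above vehicle, at 73.5 FPKM. SLC48A1, a heme transporter, rose in the shLSD1 line from 8.23 to 13.1 FPKM, and had 12.1 FPKM under vehicle and 4.51 under SP2509. UROD, an enzyme of heme synthesis, rose in the shG9a line from 12.5 to 20.7 FPKM, and had 11.2 FPKM under vehicle and 6.03 under SP2509.

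All 28 genes of iron-sulfur cluster assembly were listed, and 26 or 27 passed the filter. SP2509 gave 0 higher and 14 lower, UNC0642 gave 1 and 3, the combination 3 and 9, shLSD1 4 and 2, and shG9a 11 and 2. As shares these were 0% and 51.9% (over all genes 18% and 37.3%), 3.70% and 11.1% (15.6% and 13.8%), 11.1% and 33.3% (28.8% and 28.9%), 15.4% and 7.69% (22.4% and 10.3%), and 42.3% and 7.69% (29.9% and 15.7%). The median log2 fold changes were -0.43, -0.06, -0.14, 0.22 and 0.28. NDOR1, which feeds electrons to the cytosolic assembly, fell from 8.87 to 2.48 FPKM with SP2509, whereas in the shLSD1 line it had 4.97 FPKM without and 9.61 with Dox. NUBPL, an assembly factor of complex I, fell from 4.41 to 0.999 FPKM with the combination, in which ISCA1 rose from 17.6 to 29.8. CIAPIN1, of the cytosolic pathway, rose in both lines, from 8.64 to 16.1 FPKM (shLSD1) and from 10.1 to 17.9 FPKM (shG9a), and had 16.05 FPKM under vehicle and 9.64 under SP2509. HSPA9, a mitochondrial chaperone, was below vehicle (221 FPKM) in every treated inhibitor library. It was lowest for SP2509 (108 FPKM), against 146 for UNC0642 and 146 for the combination. The shG9a pair stood at 101 FPKM uninduced and 53.6 induced, and the shLSD1 pair at 89.8 and 86.1. HSPA9 levels are not set against each other across the tables, because its reads require a longer gene in the knockdown table. Vehicle held 16434 reads at 221 FPKM, and the uninduced shLSD1 library 13157 reads at 89.8 FPKM. CIAO2B, listed under its older symbol FAM96B, rose from 31.4 to 42.6 FPKM with UNC0642 and fell from 33.3 to 19.2 in the shLSD1 line.

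**Figure D4:**
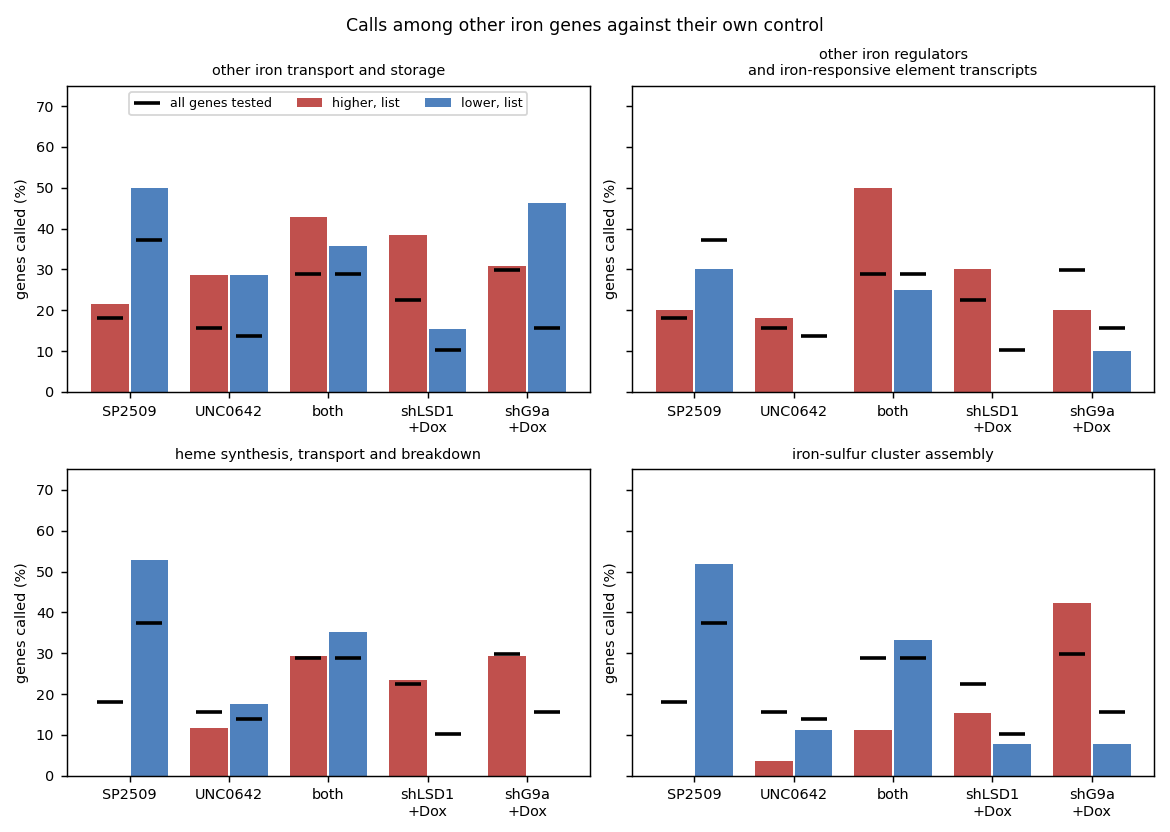
Genes called higher (red) and lower (blue), in percent of the members that passed the filter, for 4 lists of other iron genes (panels) in the 5 comparisons (x axis); black marks give the percent called over all genes tested, and there are no error bars. With SP2509 the heme and iron-sulfur lists have 0 genes called higher, and 52.9% and 51.9% called lower beside 37.3% over all genes.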

How the data were processed

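From 150-base paired-end reads, the authors discarded those of poor quality or with contamination, aligned the rest to GRCh38 and deposited gene-level FPKM values in 2 tables; the aligner, the counting tool and the strand setting are not given in the sources used here. Library totals were taken from the steps of FPKM in small RNA and other 1-exon genes, and the reads of every gene from the smallest length that made all its values whole (tolerance 0.002 reads) in both tables, or in 1 table where no shared length existed. This accounted for 99.6% to 99.8% of each total. Calls followed the study's thresholds (fold change of at least 1.3, p under 0.05) on FPKM with a pseudocount of 1, for genes with at least 1 FPKM in at least 1 library. The two-sided exact binomial p was 2 times the smaller tail. The recovery of the reads and the calling rule were tested on simulated libraries, and the other steps were not. The members, the lists and their named genes (per list and comparison, the largest called rise and fall) were chosen with earlier results of these data known, and the comparisons of the combination with single inhibitors were added after the data were seen. A gene that the rule names is not reported here. SciPy 1.17.1 and Python 3.11.15 were used, and UTR sequences came from GENCODE release 44.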

Additional observations from a re-analysis of the deposited data

Results flagged for a closer look

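IREB2 was called in opposite directions when LSD1 was inhibited and when it was silenced: its log2 fold change was -1.10 with SP2509 and 0.38 in the shLSD1 line. The difference between these effects was not tested, each rests on 1 library against 1 control, and the latter lies at the 1.3-fold threshold. The shLSD1 call ended when ratios were centred on their median (log2 0.27). A rise of IREB2 was not particular to the shLSD1 line, since the log2 fold change in the shG9a line was 0.82. The controls also differed in level. Vehicle had 11.0 FPKM and the uninduced shLSD1 line 4.72 FPKM, beside 4.63 FPKM under SP2509.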

How the results depend on the processing

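Calls among the 9 iron genes numbered 4 with SP2509, 2 with UNC0642, 5 with both inhibitors, 3 in the shLSD1 line and 5 in the shG9a line. At a fold threshold of 2 they numbered 4 with SP2509, 0 with UNC0642, 2 with both inhibitors, 0 in the shLSD1 line and 1 in the shG9a line. With ratios centred on their median they numbered 6 with SP2509, 2 with UNC0642, 5 with both inhibitors, 0 in the shLSD1 line and 4 in the shG9a line. Centring also changed the sign of 3 differences that were not called, namely SLC11A2 with SP2509 (log2 0.026) and TFRC (-0.070) and SLC11A2 (-0.032) in the shG9a line. Of the 45 gene values, centring ended 5 calls and added 3, the 2-fold threshold ended 12, a minimum of 5 FPKM ended 1 and a pseudocount of 0.1 added 1. Without the filter, with the fold change only, with Benjamini-Hochberg adjusted p, with the fewest whole reads and with pooled ferritin pseudogenes (an alternative chosen after seeing the data), each of the 45 values kept its direction and its call, as did the 18 values against the mean of the uninduced libraries. No paired analysis was possible because each condition has 1 library. SLC40A1, with 45 to 475 reads, was the gene most limited by depth.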
